A study of Homo sapiens with 10 samples.

Results

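The genes described here carry out origin firing and replication fork work in the cell nucleus: they mark origins of DNA replication, license and fire them, unwind the DNA at the fork, copy both strands and join the fragments. A list of 47 gene symbols defined the set. A probe set is a small group of probes read together as 1 value, and shared probe sets can match more than 1 transcript. The members on the array are all probe sets whose annotation gives exactly 1 of these symbols. That rule took 81 probe sets for 47 genes, of the 19775 genes that have a probe set with 1 symbol. Another 4 probe sets name a member together with another gene and were left out. The rule itself uses no values, but the list of symbols was chosen with earlier results of these data known.

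Expression was measured with Affymetrix HG-U133 Plus 2.0 arrays in IMR90, a widely used line of human lung fibroblasts, with 5 arrays of senescent and 5 of proliferating cells. Senescent cells had reached 90 population doublings, having been passaged to the point where growth stopped, and were then held for 2 weeks. Proliferating cells were at 28 population doublings. Both grew in 3% oxygen with 10% fetal bovine serum, and the labels name no knockdown, drug or transgene in either group. Whether the 5 arrays of a group are separate cultures is not stated, so a p-value reflects the spread between these samples alone, possibly a technical one, in 1 cell line. Doublings and the weeks in the dish differ together with growth state and cannot be told apart from it.

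DNA replication starts when the origin recognition complex, with CDC6 and CDT1, loads the MCM helicase on DNA as an inactive ring. The kinase CDC7 with its activator DBF4 then lets CDC45 and the GINS complex join, which makes the active helicase known as CMG, and polymerases alpha, delta and epsilon copy the unwound strands behind it. In cycling cells many of these genes are transcribed in waves under E2F factors, which RB family proteins hold back when cells leave the cycle. Replicative senescence is a lasting exit from the cycle in which cells no longer enter S phase.

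The deposited values are log2 values on a scale where each array's median lay between 3.05 and 3.12. LMNB1, which encodes lamin B1 and is known to be lost in senescence, averaged 5.42 ± 0.36 in senescent cells and 10.93 ± 0.09 in proliferating cells (log2, SD, n = 5 each). CDKN2A, which encodes the cell cycle inhibitor p16, averaged 7.63 ± 0.18 in senescent cells and 4.43 ± 0.96 in proliferating cells on the same scale. Of 9 fibroblast markers none had a low signal, which here means a value under the array's 60th percentile, a cut of 4.64 to 4.77, on all arrays of a group. In both groups together 5 of 5 leukocyte markers, 5 of 6 endothelial markers (all but TEK), 4 of 6 epithelial markers (all but EPCAM and SFTPC) and 1 of 5 smooth muscle markers had a low signal. Summed marker values ran from 108.1 to 109.2 in senescent and from 107.9 to 110.1 in proliferating cells for fibroblasts, among which LUM averaged 11.94 in senescent and 10.45 in proliferating cells and FAP averaged 7.64 in senescent and 9.33 in proliferating cells. They ran from 20.6 to 21.6 in senescent and from 22.8 to 23.2 in proliferating cells for epithelium, where EPCAM averaged 4.18 in senescent and 6.49 in proliferating cells. For endothelium they ran from 21.8 to 22.3 in senescent and from 20.9 to 21.5 in proliferating cells, for leukocytes from 12.8 to 13.3 in senescent and from 12.7 to 12.9 in proliferating cells, and for smooth muscle from 33.5 to 33.9 in senescent and from 33.3 to 34.8 in proliferating cells. The part of these other markers in the results was not tested.

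The replication genes were lower in senescent cells almost throughout. In a limma fit over 32732 probe sets, adjusted by the Benjamini-Hochberg method with a threshold of 0.05, 65 of the 73 tested member probe sets were called lower, against 26.2% of all tested probe sets. Read from 1 probe set a gene, the tested one with the highest mean over all arrays, 42 of the 45 tested members fell, which is 93.3%, against 29.8% of the 12909 tested genes. No member was called higher by limma, nor at an unadjusted p of 0.05, against 30.5% of all tested genes called higher at the adjusted threshold. The decline was at least 4-fold in 28 of 45 members, or 62.2%, against 4.25% of all tested genes. It was at least 2-fold in 38 members, against 1323 of the 12909 tested genes, and at least 8-fold in 19 members, against 291 of those genes. The median difference was -2.71 (log2, senescent minus proliferating) over the tested members and 0.04 over all tested genes. In 42 of 45 members all senescent arrays lay under all proliferating arrays, as in 25.1% of all tested genes. In bulk RNA, fewer cells that transcribe a gene and less RNA per cell cannot be told apart.

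The members that did not enter the test were ORC1 and POLD1, whose only probe sets lay under the filter on low values, which asks for a value above the array's 40th percentile on at least 5 arrays. No tested member gene passed that filter through proliferating arrays alone, although CDC45 and CLSPN lay under it on some senescent arrays, and 2 of the 73 tested member probe sets passed in that way. With no filter all 47 members could be read, and 42 of 47 were called lower and 0 higher by limma, against 18.6% lower among all 19775 genes. CDC45, GINS4, POLA2, POLE, POLE2, LIG1 and CLSPN had a low signal on all senescent arrays. For these the level in senescent cells was not told apart from background. GINS3, CDC7 and DNA2 lay under the 60th percentile on some senescent arrays, so the size of their declines is also less certain. An RNA quality control of the array is the 3′ minus the 5′ signal of ACTB. It was 2.32 ± 0.10 in senescent and 2.07 ± 0.14 in proliferating cells (log2, SD, n = 5 each, exact permutation p = 0.00794). The same control from GAPDH was 0.12 ± 0.09 in senescent and -0.03 ± 0.18 in proliferating cells (exact permutation p = 0.135). With the ACTB control as a covariate, 43 of 45 member genes and 61 of 73 member probe sets were called lower, against 42 and 65 without it. The ACTB control did not overlap between groups, at 2.24 to 2.47 on senescent and 1.85 to 2.19 on proliferating arrays. Fits with it, here and below, can therefore not tell RNA quality apart from growth state.

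**Figure D1:**
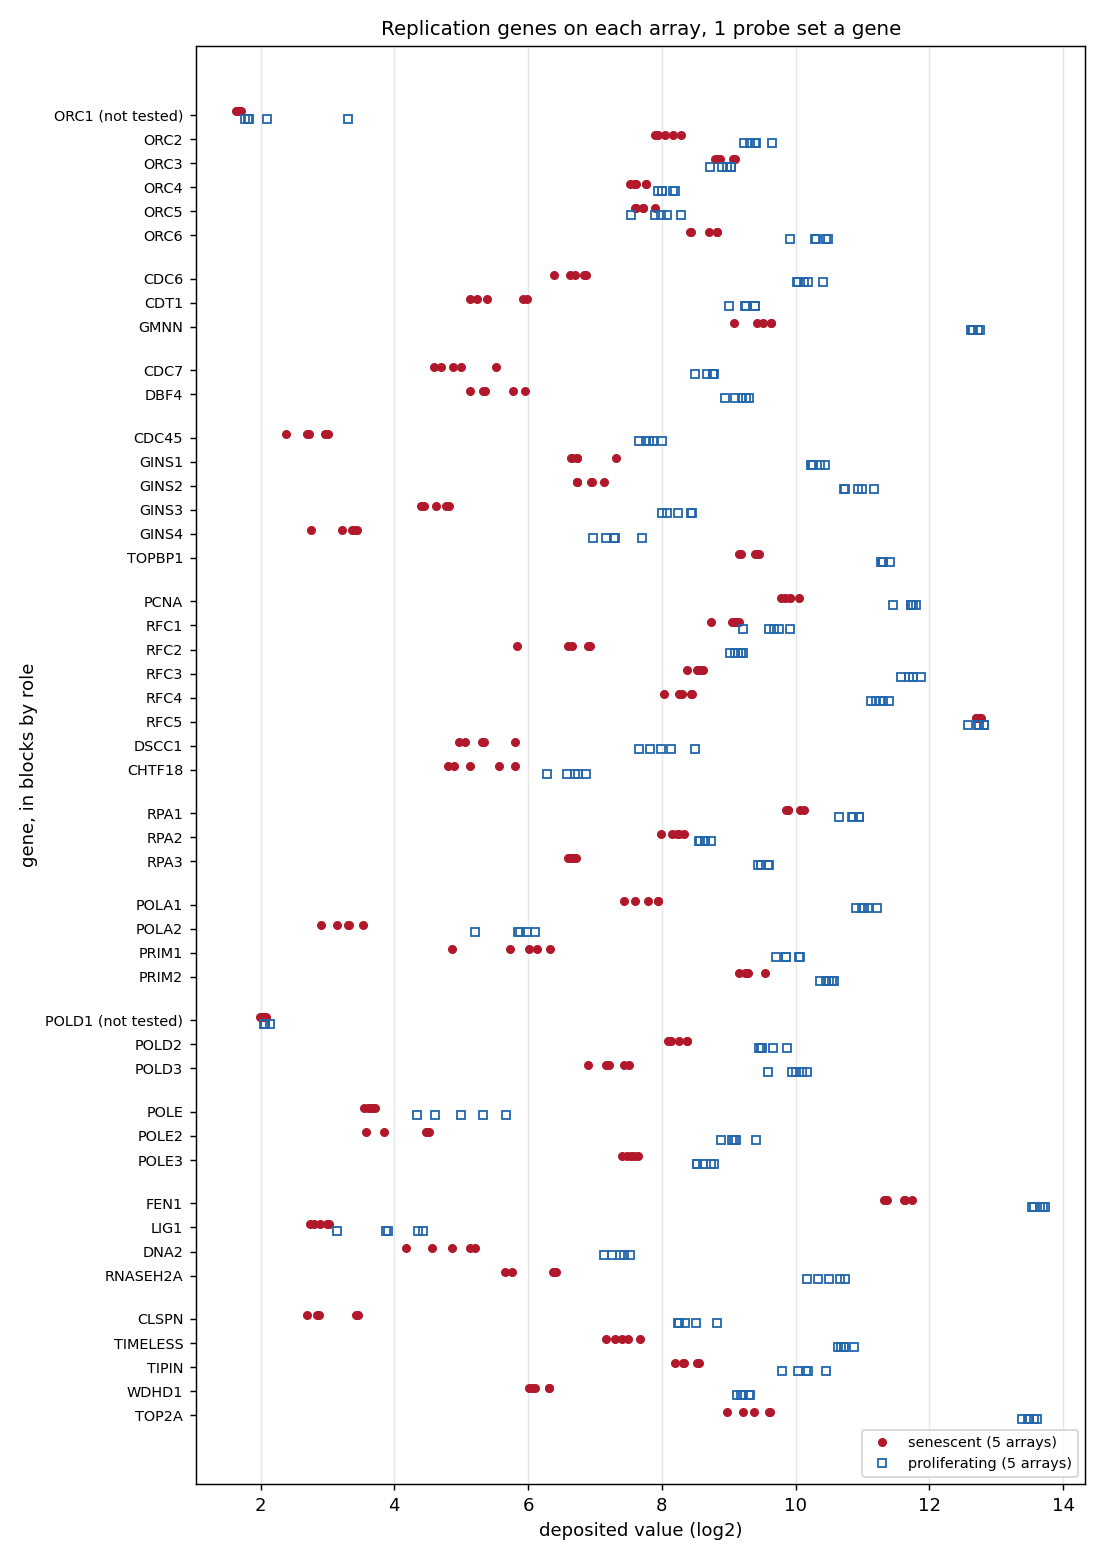
Deposited log2 value (horizontal axis) of each replication gene (rows, in blocks by role) on the 5 senescent arrays (filled circles) and the 5 proliferating arrays (open squares), from the probe set with the highest mean. The senescent arrays lie left of all proliferating arrays in 42 of the 45 tested genes, and the groups overlap in ORC3, ORC5 and RFC5.

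RefSeq promoters, here the 250 bases before and the 50 bases after a transcription start on GRCh38.p14, were matched to 41 of the 47 members, and 6 of them are printed because they belong to the 3 members with the largest and the 3 with the smallest differences. Capitals mark matches of E2F-type motifs and of CCAAT boxes, on either strand, and each sequence runs 5′ to 3′ on the strand of its gene. The first 3 belong to CLSPN (chr1:35769929-35770228, minus strand), CDC45 (chr22:19479670-19479969, plus strand, 1 of 3 starts) and POLE2 (chr14:49688165-49688464, minus strand), the members that fell most.
CLSPN: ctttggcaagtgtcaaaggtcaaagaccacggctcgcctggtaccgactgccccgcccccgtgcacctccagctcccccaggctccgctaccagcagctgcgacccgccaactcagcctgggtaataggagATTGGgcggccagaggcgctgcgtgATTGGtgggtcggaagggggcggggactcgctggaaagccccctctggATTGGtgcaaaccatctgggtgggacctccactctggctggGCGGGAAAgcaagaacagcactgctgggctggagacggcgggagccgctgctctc
CDC45: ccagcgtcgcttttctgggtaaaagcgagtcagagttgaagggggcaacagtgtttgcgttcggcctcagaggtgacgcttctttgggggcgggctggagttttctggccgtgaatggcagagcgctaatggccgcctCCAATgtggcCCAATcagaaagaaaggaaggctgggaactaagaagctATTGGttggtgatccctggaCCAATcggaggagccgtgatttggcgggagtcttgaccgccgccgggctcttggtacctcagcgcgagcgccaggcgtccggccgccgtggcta
POLE2: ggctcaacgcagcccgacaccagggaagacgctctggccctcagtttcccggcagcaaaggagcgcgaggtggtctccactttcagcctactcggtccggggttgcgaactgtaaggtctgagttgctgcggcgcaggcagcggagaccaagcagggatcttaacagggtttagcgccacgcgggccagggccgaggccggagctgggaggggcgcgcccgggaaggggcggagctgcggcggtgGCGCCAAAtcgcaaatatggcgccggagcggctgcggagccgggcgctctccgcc
The next 3 belong to ORC3 (chr6:87589885-87590184, plus strand), RFC5 (chr12:118016453-118016752, plus strand) and ORC5 (chr7:104207964-104208263, minus strand), the members not called on their probe set with the highest mean. RFC5 was called lower on its other probe sets (-2.34 and -2.49), and ORC5 on 211212_s_at (-0.61) but not on 211213_at.
ORC3: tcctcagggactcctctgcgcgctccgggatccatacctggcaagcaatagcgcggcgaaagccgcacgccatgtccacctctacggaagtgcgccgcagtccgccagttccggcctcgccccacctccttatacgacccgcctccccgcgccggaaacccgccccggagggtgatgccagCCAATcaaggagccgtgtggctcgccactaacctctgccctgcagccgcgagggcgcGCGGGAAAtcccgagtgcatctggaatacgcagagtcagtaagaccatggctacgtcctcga
RFC5: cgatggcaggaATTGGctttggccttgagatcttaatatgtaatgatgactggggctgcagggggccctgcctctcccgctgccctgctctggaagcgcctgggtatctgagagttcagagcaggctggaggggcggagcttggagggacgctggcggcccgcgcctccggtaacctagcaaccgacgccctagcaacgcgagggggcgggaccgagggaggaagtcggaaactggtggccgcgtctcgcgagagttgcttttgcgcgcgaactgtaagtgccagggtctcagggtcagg
ORC5: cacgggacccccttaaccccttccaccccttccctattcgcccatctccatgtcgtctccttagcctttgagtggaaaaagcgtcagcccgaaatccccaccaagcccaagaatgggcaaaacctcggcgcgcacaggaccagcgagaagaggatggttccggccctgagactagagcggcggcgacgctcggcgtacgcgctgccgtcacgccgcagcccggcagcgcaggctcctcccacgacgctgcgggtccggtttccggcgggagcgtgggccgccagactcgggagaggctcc
The E2F-type motifs searched were TTTCCCGC, TTTGGCGC, TTTCGCGC and TTTGCCGC, and the cell cycle homology region (CHR) was searched as TTTGAA and TTCGAA. None of the motifs contains another. CLSPN and POLE2 each have an E2F-type match that begins 5 bases before the start, and ORC3, which was not called, has 1 that begins 12 bases before it. The printed CDC45 window has 4 CCAAT matches and no E2F-type match of these letters, and the ORC5 window has neither motif.

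E2F-type matches were found in 18 of the 41 members with a promoter, or 43.9%, against 5.4% of 15843 protein-coding genes. Counted by promoter, 34.62% of 52 member promoters hold such a match, against 4.1% of 22199 promoters of protein-coding genes and 3.31% of all 35116 promoters. In 9 of the 18 member promoters with a match it begins within the 50 bases before the start, as it does in 19.6% of the 910 matching promoters of protein-coding genes. CCAAT was found in 56.1% of members and in 42.14% of protein-coding genes, and the CHR in 7.32% of members and 17.47% of protein-coding genes. Each gene was read from its probe set with the highest mean, which puts RFC5, with no E2F-type match, at -0.01. The median difference of members was -3.26 with an E2F-type match (n = 18) and -1.66 without (n = 21). Reading RFC5 from either of its other probe sets (-2.34 and -2.49) would lower the second of these medians, and the gap was not tested. For CCAAT those medians were -2.51 with a match (n = 22) and -2.56 without (n = 17). These are counts of letters in a window and no measurement of binding.

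**Figure D2:**
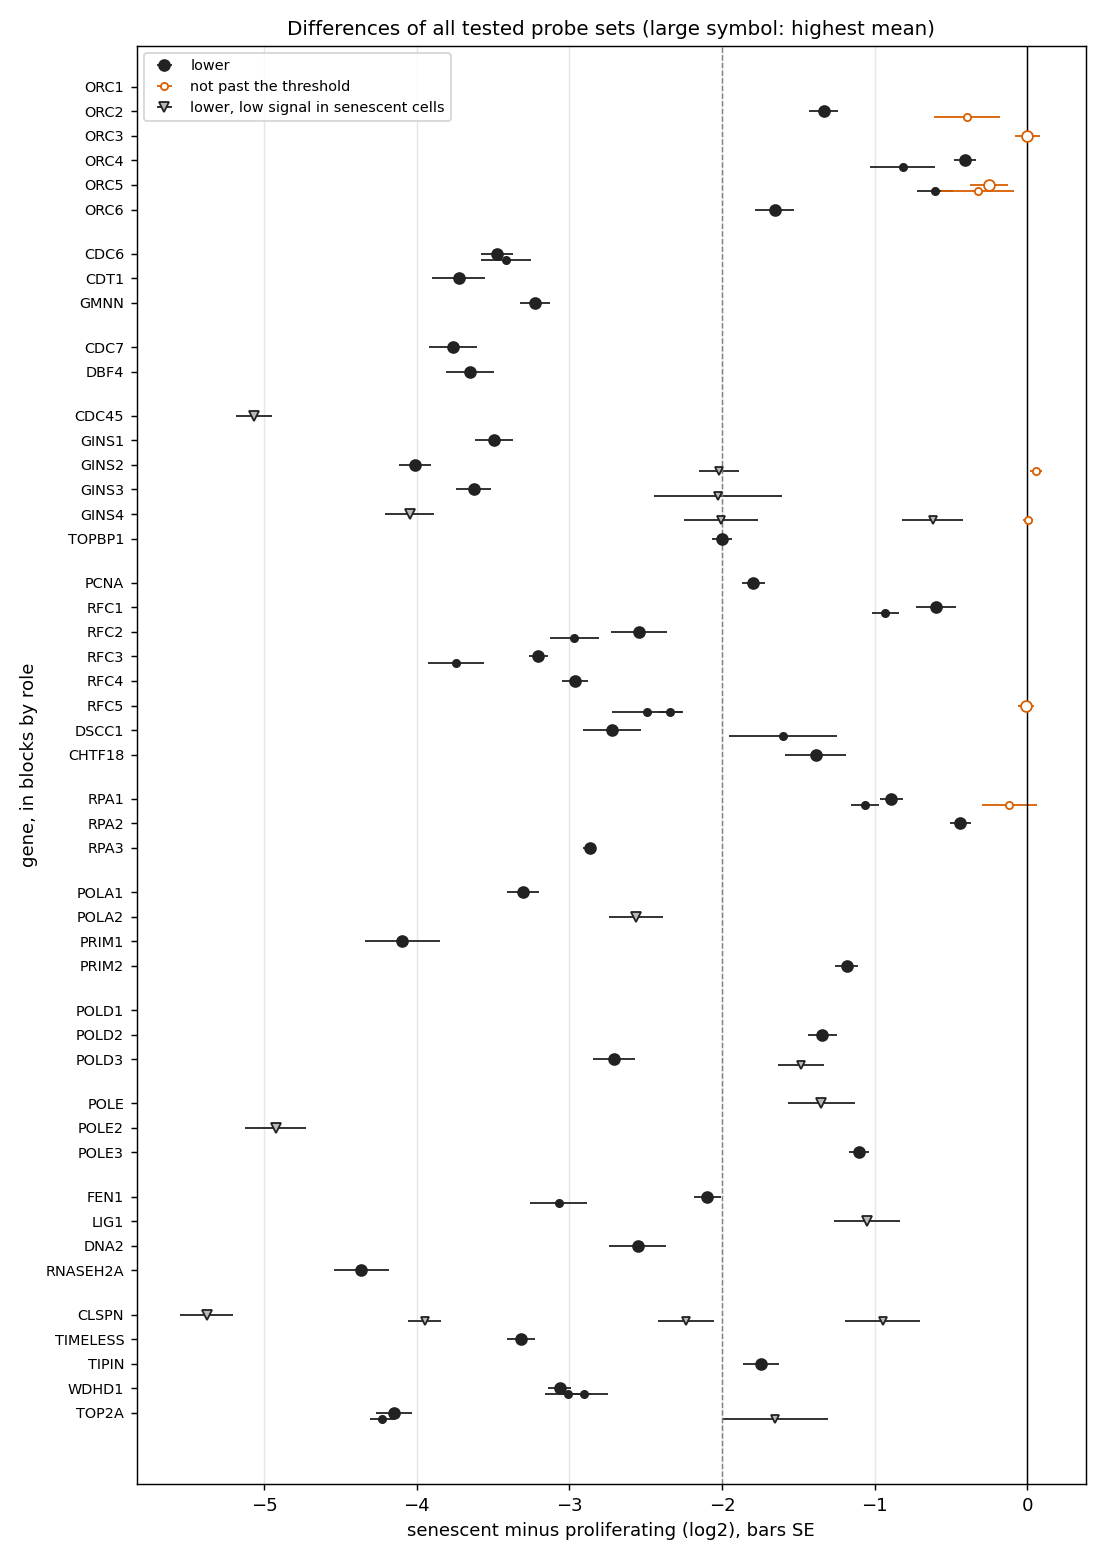
Difference of senescent minus proliferating means (horizontal axis, log2; bars are SE from limma, n = 5 arrays each) for every tested probe set of each replication gene (rows, in blocks by role), with the probe set of the highest mean drawn larger and a dashed line at a 4-fold decline. Filled symbols were called lower, triangles had a low signal in senescent cells, and open circles did not pass the threshold. CLSPN lies farthest left at -5.38, while ORC3 and RFC5 lie close to 0.

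The origin recognition complex, the 6-subunit machine that marks origins and stays in the cell outside S phase, had the smallest median difference of the 11 roles. Of its 5 tested subunits 3 fell, none by 4-fold or more, with a median of -0.41. ORC6 (219105_x_at), the smallest subunit and needed to load the helicase, had log2 values of 8.82, 8.43, 8.82, 8.42 and 8.70 on senescent arrays 1 to 5, against 10.29, 9.92, 10.46, 10.31 and 10.49 on proliferating arrays 1 to 5. All senescent values lay under all proliferating ones, and ORC6 fell by 1.66 (3.15-fold, limma adjusted p = 1.7e-06). ORC4 (203351_s_at), one of the ATP-binding subunits, read 7.77, 7.62, 7.76, 7.58 and 7.53 on senescent arrays, against 8.20, 7.94, 8.16, 8.00 and 8.00 on proliferating arrays (log2). The groups lay close together without overlapping, and the difference was -0.41 (SE 0.07, limma adjusted p = 0.00064). ORC3 (210028_s_at), a core subunit, read 9.06, 8.84, 9.09, 8.80 and 8.87 on senescent arrays, against 8.97, 8.72, 9.04, 8.90 and 9.04 on proliferating arrays (log2). Its groups overlapped across nearly their whole range and the means differed by 0.00 (SE 0.08, limma adjusted p = 1). With the ACTB control as a covariate ORC3 differed by -0.24 (limma adjusted p = 0.027).

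ORC2 (204853_at), another core subunit, had log2 values of 8.05, 7.95, 8.28, 8.16 and 7.90 on senescent arrays, against 9.32, 9.41, 9.23, 9.39 and 9.65 on proliferating arrays. The groups did not overlap and ORC2 fell by 1.33 (2.52-fold, limma adjusted p = 8.9e-07), while its second probe set (235423_at) differed by -0.40 without passing the threshold (adjusted p = 0.16). ORC5 gave different answers by probe set. The brightest (204957_at) differed by -0.25 (SE 0.13, limma adjusted p = 0.12), the next (211212_s_at) fell by 0.61 (SE 0.12, adjusted p = 0.0013) with no overlap, and the last (211213_at) had a low signal in both groups. The call of the brightest turned on the setting: without proliferating array 2 it differed by -0.35 (limma adjusted p = 0.0087). ORC1 (205085_at), the subunit whose protein is cleared after origins fire in human cells, read 1.65, 1.64, 1.67, 1.68 and 1.71 on senescent arrays, against 2.10, 1.82, 1.77, 1.83 and 3.31 on proliferating arrays (log2). Only proliferating array 5 lay above the filter on low values, and no call was made.

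The licensing factors fell together, all 3 by more than 9-fold. CDC6 (203968_s_at), the ATPase that joins the origin recognition complex to load MCM, had log2 values of 6.39, 6.86, 6.70, 6.84 and 6.62 on senescent arrays, against 10.02, 10.03, 10.13, 10.18 and 10.41 on proliferating arrays. No senescent array came within 3 log2 units of a proliferating one, and CDC6 fell by 3.47 (11.1-fold, SE 0.10, limma adjusted p = 2.5e-09). CDT1 (228868_x_at), which brings MCM to the origin, read 5.13, 5.23, 5.98, 5.92 and 5.39 on senescent arrays, against 9.39, 9.24, 9.00, 9.26 and 9.39 on proliferating arrays (log2). The groups were as far apart, with a difference of -3.73 (SE 0.17, limma adjusted p = 5.4e-08). The other CDT1 probe set (209832_s_at) averaged 1.53 in senescent and 2.1 in proliferating cells, a low signal in both, and was not tested. GMNN (218350_s_at), which encodes geminin, the inhibitor that binds CDT1 after S phase begins, read 9.51, 9.63, 9.63, 9.43 and 9.08 on senescent arrays, against 12.64, 12.63, 12.72, 12.65 and 12.76 on proliferating arrays (log2). The proliferating arrays were nearly equal to each other and all above the senescent ones, and GMNN fell by 3.22 (9.33-fold, limma adjusted p = 2.7e-09). The loading factor and its inhibitor were both lower in senescent cells.

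Both parts of the firing kinase fell by more than 12-fold. CDC7 (204510_at), the catalytic part, had log2 values of 4.88, 4.59, 5.52, 4.70 and 4.99 on senescent arrays, against 8.76, 8.5, 8.78, 8.67 and 8.77 on proliferating arrays. DBF4 (204244_s_at), its activating partner, read 5.35, 5.13, 5.77, 5.96 and 5.32 on senescent arrays, against 8.94, 9.20, 9.26, 9.09 and 9.30 on proliferating arrays (log2). In neither gene did the groups overlap. CDC7 fell by 3.76 (13.6-fold, limma adjusted p = 2.3e-08) and DBF4 fell by 3.65 (12.6-fold, limma adjusted p = 2.7e-08).

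On the probe sets with the highest mean, the helicase partners and firing factors had the largest median decline of the 11 roles, -3.82. All 6 genes fell at least 4-fold there. With the probe sets of a gene averaged, GINS3 differed by -2.83, GINS2 by -1.99 and GINS4 by -1.67. The ranking and the 4-fold count thus depend on the probe set. CDC45 (204126_s_at), which completes the CMG helicase, had log2 values of 2.70, 3.01, 2.73, 2.96 and 2.38 on senescent arrays, against 8.00, 7.66, 7.81, 7.77 and 7.87 on proliferating arrays. The senescent arrays had a low signal, near the 40th percentile of the array, and CDC45 fell by 5.06 (33.5-fold, SE 0.12, limma adjusted p = 4.6e-10). GINS1 (206102_at), a subunit of the 4-part GINS ring that binds MCM and CDC45, read 6.65, 6.73, 7.31, 6.64 and 6.73 on senescent arrays, against 10.26, 10.25, 10.36, 10.23 and 10.44 on proliferating arrays (log2). Senescent array 3 stood above the other senescent arrays but far under the proliferating ones, and the difference was -3.49 (SE 0.12, limma adjusted p = 7.3e-09). GINS3 (45633_at) read 4.77, 4.82, 4.44, 4.40 and 4.62 on senescent arrays, against 8.45, 8.00, 8.24, 8.08 and 8.43 on proliferating arrays (log2), again without overlap, and fell by 3.63 (limma adjusted p = 3.9e-09). GINS2 fell by 4.01 (16.1-fold) and GINS4 fell by 4.05 (16.5-fold) on their brightest probe sets (221521_s_at and 211767_at, limma adjusted p = 1.1e-09 and 1.7e-08).

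TOPBP1 (202633_at) is a scaffold that helps CDC45 and GINS to load and also activates the checkpoint kinase ATR. It fell least of the 6 on the probe sets with the highest mean. After quantile normalisation it differed by -1.99, just under 4-fold. Its log2 values were 9.42, 9.18, 9.45, 9.39 and 9.16 on senescent arrays, against 11.31, 11.29, 11.31, 11.41 and 11.28 on proliferating arrays. The proliferating arrays spanned a narrow range above all senescent ones, and TOPBP1 fell by 2.00 (4-fold, SE 0.07, limma adjusted p = 5.5e-09).

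The sliding clamp and 7 loader genes were less uniform. All but RFC5 were called lower, 4 of 8 by at least 4-fold, with a median of -2.17. PCNA (201202_at), the ring that holds polymerases on DNA, had log2 values of 10.05, 9.84, 9.92, 9.92 and 9.78 on senescent arrays, against 11.73, 11.46, 11.80, 11.76 and 11.73 on proliferating arrays. Proliferating array 2 was the lowest of its group yet above every senescent array, and PCNA fell by 1.80 (3.47-fold, limma adjusted p = 2.3e-08). RFC1 (208021_s_at), the large subunit of the loader that opens PCNA, read 9.12, 9.16, 9.10, 9.05 and 8.73 on senescent arrays, against 9.60, 9.22, 9.91, 9.68 and 9.75 on proliferating arrays (log2). The highest senescent and the lowest proliferating values nearly met, and the difference was -0.60 (SE 0.13, limma adjusted p = 0.0028). It was -0.91 for RFC1 with the ACTB control as a covariate (limma adjusted p = 0.0012).

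RFC3 (204127_at), a small subunit of the same loader, had log2 values of 8.58, 8.53, 8.38, 8.61 and 8.54 on senescent arrays, against 11.69, 11.58, 11.75, 11.75 and 11.88 on proliferating arrays. Both groups were tight and far apart, and RFC3 fell by 3.20 (9.22-fold, SE 0.06, limma adjusted p = 1.9e-10). The small subunit RFC2 (1053_at) fell by 2.54 and the small subunit RFC4 (204023_at) fell by 2.96 (limma adjusted p = 1.1e-06 and 1.8e-09). RFC5, the last small subunit, has 3 probe sets that disagree. The brightest (213734_at) read 12.74, 12.69, 12.69, 12.76 and 12.77 on senescent arrays, against 12.74, 12.81, 12.58, 12.73 and 12.82 on proliferating arrays (log2), with groups that overlapped and a difference of -0.01 (SE 0.05, limma adjusted p = 0.89). The others, 203209_at and 203210_s_at, fell by 2.34 (SE 0.08, limma adjusted p = 4.3e-09) and fell by 2.49 (SE 0.23, limma adjusted p = 8e-06), each without overlap. In the RefSeq annotation RFC5 overlaps its neighbour WSB2, and whether 213734_at reports RFC5 alone was not tested.

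DSCC1 and CHTF18 belong to an alternative loader that places PCNA at forks and helps sister chromatids to stay joined. DSCC1 (219000_s_at) had log2 values of 5.31, 5.81, 4.97, 5.34 and 5.06 on senescent arrays, against 8.14, 7.66, 7.99, 7.82 and 8.5 on proliferating arrays. CHTF18 (226569_s_at), the large subunit, read 5.13, 5.81, 5.57, 4.90 and 4.81 on senescent arrays, against 6.86, 6.28, 6.58, 6.74 and 6.70 on proliferating arrays (log2). Neither overlapped between groups. DSCC1 fell by 2.72 (6.59-fold, limma adjusted p = 8.1e-07) and CHTF18 fell by 1.39 (2.61-fold, limma adjusted p = 0.00018).

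RPA, the trimer that coats single-stranded DNA at forks and in repair, fell unevenly. All 3 subunits were called lower, and 1 of 3 by at least 4-fold. RPA3 (209507_at), the smallest subunit, had log2 values of 6.66, 6.60, 6.66, 6.64 and 6.71 on senescent arrays, against 9.49, 9.49, 9.60, 9.44 and 9.58 on proliferating arrays. Each group spanned under 0.2 log2 units, and RPA3 fell by 2.87 (7.3-fold, SE 0.04, limma adjusted p = 3.9e-11). RPA1 (201528_at), the main DNA-binding subunit, read 9.88, 9.86, 10.12, 9.88 and 10.06 on senescent arrays, against 10.86, 10.65, 10.95, 10.84 and 10.95 on proliferating arrays (log2). RPA2 (201756_at), the middle subunit, which is phosphorylated after damage, read 8.22, 8.15, 7.99, 8.25 and 8.33 on senescent arrays, against 8.57, 8.74, 8.64, 8.55 and 8.64 on proliferating arrays (log2). Both were lower on every senescent array, by smaller steps. RPA1 fell by 0.89 (1.86-fold, limma adjusted p = 4e-06) and RPA2 fell by 0.44 (1.36-fold, limma adjusted p = 0.00029). With the ACTB control as a covariate RPA2 differed by -0.29 (limma adjusted p = 0.023).

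Polymerase alpha and primase start each new strand with a short RNA and DNA primer, and all 4 subunits fell, 3 of them by at least 4-fold. PRIM1 (205053_at), the catalytic primase, had log2 values of 5.73, 6.33, 6.13, 6.01 and 4.86 on senescent arrays, against 10.07, 9.85, 9.70, 9.86 and 10.05 on proliferating arrays. Senescent array 5 was lowest, all senescent arrays were far under the proliferating ones, and PRIM1 fell by 4.09 (17.1-fold, SE 0.24, limma adjusted p = 2.8e-07). PRIM2 (205628_at), the large primase subunit, read 9.25, 9.16, 9.27, 9.29 and 9.55 on senescent arrays, against 10.45, 10.36, 10.58, 10.50 and 10.54 on proliferating arrays (log2). The groups did not overlap, and PRIM2 fell by 1.18 (2.27-fold, limma adjusted p = 4.3e-07). POLA1 (204835_at), the catalytic polymerase subunit, read 7.60, 7.95, 7.94, 7.79 and 7.43 on senescent arrays, against 11.02, 11.08, 11, 10.90 and 11.22 on proliferating arrays (log2). POLA2 (204441_s_at), the accessory subunit, read 2.90, 3.53, 3.14, 3.31 and 3.32 on senescent arrays, where its signal was low, against 6.11, 5.88, 5.85, 5.20 and 5.98 on proliferating arrays (log2). Neither overlapped, and POLA1 fell by 3.30 (limma adjusted p = 4e-09) and POLA2 fell by 2.56 (limma adjusted p = 7.5e-07).

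Polymerase delta, known as the main lagging strand enzyme, was read from its accessory subunits. POLD3 (212836_at) had log2 values of 7.21, 7.44, 7.51, 7.17 and 6.90 on senescent arrays, against 9.94, 9.59, 10.10, 10.00 and 10.17 on proliferating arrays. POLD2 (201115_at) read 8.37, 8.38, 8.09, 8.13 and 8.25 on senescent arrays, against 9.45, 9.66, 9.50, 9.48 and 9.87 on proliferating arrays (log2). Neither gene overlapped between groups. POLD3 fell by 2.71 (6.54-fold, limma adjusted p = 8.9e-08) and POLD2 fell by 1.34 (2.54-fold, limma adjusted p = 9.6e-07). POLD1 (203422_at), the catalytic subunit, lay between 1.99 and 2.08 on senescent arrays and between 2.05 and 2.14 on proliferating arrays (log2), under the filter on every array, so it was not tested.

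Polymerase epsilon, the leading strand enzyme, held both a very large and a modest decline. POLE2 (205909_at), its B subunit, had log2 values of 4.51, 4.52, 3.85, 3.57 and 4.47 on senescent arrays, against 9.05, 8.89, 9.08, 9.11 and 9.41 on proliferating arrays. The senescent values had a low signal, and POLE2 fell by 4.92 (30.4-fold, SE 0.20, limma adjusted p = 1.8e-08). POLE3 (208828_at), a small histone-fold subunit that also serves in chromatin remodelling, read 7.48, 7.54, 7.41, 7.64 and 7.59 on senescent arrays, against 8.53, 8.52, 8.73, 8.62 and 8.78 on proliferating arrays (log2). Its groups were about 1 log2 unit apart with no overlap, and POLE3 fell by 1.10 (2.15-fold, limma adjusted p = 3.3e-07). POLE (216026_s_at), the catalytic subunit, fell by 1.35 (limma adjusted p = 0.00045) on a probe set with a low signal in senescent cells, and differed by -0.88 with the ACTB control as a covariate (limma adjusted p = 0.035).

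The 4 genes that process Okazaki fragments fell, 3 of them by at least 4-fold. RNASEH2A (203022_at), the catalytic subunit of the enzyme that cuts RNA out of DNA, had log2 values of 6.42, 6.39, 6.37, 5.66 and 5.76 on senescent arrays, against 10.50, 10.66, 10.17, 10.33 and 10.74 on proliferating arrays. The groups were more than 3 log2 units apart at their nearest, and RNASEH2A fell by 4.36 (20.6-fold, limma adjusted p = 2.3e-08). FEN1 (204767_s_at), the nuclease that removes primer flaps, read 11.36, 11.62, 11.74, 11.64 and 11.32 on senescent arrays, against 13.73, 13.53, 13.65, 13.56 and 13.70 on proliferating arrays (log2). It was bright in both groups without overlap, and fell by 2.10 (4.28-fold, limma adjusted p = 2.4e-08). LIG1 (202726_at), the ligase that seals the fragments, read 2.99, 2.74, 2.8, 2.89 and 3.03 on senescent arrays, against 3.14, 3.87, 4.35, 3.90 and 4.43 on proliferating arrays (log2). The signal was low in both groups, and the difference of -1.05 (SE 0.22) passed the threshold (limma adjusted p = 0.0021), but not with the ACTB control as a covariate (-0.96, adjusted p = 0.053). DNA2 (213647_at), a nuclease and helicase that trims long flaps, fell by 2.55 (limma adjusted p = 1.2e-06).

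Fork protection factors and TOP2A all fell, 4 of 5 by at least 8-fold. CLSPN (1553120_at), which encodes claspin, the adaptor through which ATR activates the checkpoint kinase CHK1 at forks, had log2 values of 3.45, 2.85, 2.70, 2.88 and 3.43 on senescent arrays, against 8.24, 8.26, 8.35, 8.51 and 8.82 on proliferating arrays. The senescent arrays had a low signal, and CLSPN, with the largest decline of the tested members, fell by 5.38 (41.5-fold, SE 0.17, limma adjusted p = 4.3e-09). TIMELESS (203046_s_at), which travels with the fork, read 7.5, 7.41, 7.68, 7.30 and 7.16 on senescent arrays, against 10.64, 10.72, 10.73, 10.68 and 10.87 on proliferating arrays (log2). TIPIN (219258_at), its binding partner, read 8.32, 8.52, 8.33, 8.56 and 8.19 on senescent arrays, against 10.19, 9.79, 10.16, 10.04 and 10.46 on proliferating arrays (log2). Neither overlapped between groups, and TIMELESS fell by 3.32 (9.96-fold, limma adjusted p = 1.5e-09) while TIPIN fell by 1.75 (3.35-fold, limma adjusted p = 7.9e-07).

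WDHD1 (216228_s_at), which links the helicase to polymerase alpha, fell by 3.06 (SE 0.07, limma adjusted p = 5.3e-10), and its 3 probe sets gave nearly the same difference, from -3.06 to -2.90. TOP2A (201291_s_at), the topoisomerase that untangles replicated chromosomes and is most abundant in late S phase to mitosis, had log2 values of 9.61, 9.38, 9.60, 9.21 and 8.97 on senescent arrays, against 13.49, 13.38, 13.48, 13.57 and 13.61 on proliferating arrays. The groups stood about 4 log2 units apart, and TOP2A fell by 4.15 (17.8-fold, limma adjusted p = 1.8e-09).

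Of the 45 tested members, 27 have 1 tested probe set and 18 have several. In 12 of those 18 all tested probe sets were called lower, and none of the 18 had probe sets called in opposite directions. Sizes could still differ widely: the 4 CLSPN probe sets ran from -5.38 to -0.95, the 3 of GINS2 from -4.01 to 0.06, the 4 of GINS4 from -4.05 to 0.01 and the 3 of TOP2A from -4.22 to -1.65. Of the 8 tested probe sets not called, 4 had a low signal in both groups. All 8 untested member probe sets also had a low signal in both groups.

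On the probe sets read, several partners that work in 1 complex or step fell by unequal amounts. The pairs were chosen with earlier results of these data known. Probe sets of 1 gene can also differ in their change, by up to 4.43 (log2, CLSPN), so a gap need not lie between the genes. For 13 pairs the difference between the probe sets of both genes was taken on each array and compared between groups with a two-sided exact permutation test over all assignments of the arrays to 5 and 5, adjusted over the 13 pairs, and 10 pairs passed. A listed pair of ORC1 and ORC2 was not tested, since ORC1 was not. POLE2 minus POLE3 averaged -3.35 ± 0.47 in senescent cells and 0.47 ± 0.12 in proliferating cells (SD, n = 5 each), so POLE2 fell by 3.82 more than POLE3 (log2, SE 0.22, exact p = 0.00794, adjusted 0.0103). These p-values are the smallest the design allows, and the 9 other pairs that passed share them. PRIM1 fell by more than PRIM2, with a difference of differences of -2.91 (SE 0.33), RFC3 by more than RFC1 (-2.60, SE 0.12) and RPA3 by more than RPA1 (-1.98, SE 0.06). TIMELESS fell by more than TIPIN (-1.57, SE 0.14), POLD3 by more than POLD2 (-1.36, SE 0.18), DSCC1 by more than CHTF18 (-1.34, SE 0.21) and ORC6 by more than ORC4 (-1.25, SE 0.11). For POLD3 and DSCC1 the gap depended on the probe set. POLD3 on 239816_at, with a low signal in senescent cells, fell by 1.22 less than on the probe set read. For DSCC1 on 216646_at this was 1.12. With probe sets of a gene averaged, POLD3 minus POLD2 was -0.75 and DSCC1 minus CHTF18 was -0.77, and both passed. Averaging also shrank ORC6 minus ORC4 (-1.04) but widened RFC3 minus RFC1 (-2.71) and RPA3 minus RPA1 (-2.18).

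In the 2 remaining pairs that passed, the difference of differences was positive, at 0.74 (SE 0.18) for POLA2 minus POLA1 and 1.05 (SE 0.27) for LIG1 minus FEN1. POLA2 had a low signal on all senescent arrays and LIG1 on all arrays of both groups, so how far they fell could not be measured and these 2 pairs do not show that partners fell unequally. Of the 10 pairs 7 held no gene with a low signal in senescent cells. The other 3 pairs did not pass. CDC6 minus GMNN averaged -2.78 ± 0.26 in senescent and -2.52 ± 0.11 in proliferating cells (difference -0.25, SE 0.13, exact p = 0.0873, adjusted 0.103), and without senescent array 5 the difference was -0.33 and passed (adjusted exact p = 0.028). DBF4 minus CDC7 averaged 0.57 ± 0.40 in senescent and 0.46 ± 0.19 in proliferating cells (difference 0.11, SE 0.20, exact p = 0.73), and senescent array 4 stood above the rest; without that array the difference was -0.07. GINS1 minus GINS3 averaged 2.20 ± 0.40 in senescent and 2.07 ± 0.17 in proliferating cells (difference 0.13, SE 0.20, exact p = 0.627, adjusted 0.679), and the difference was -0.03 without senescent array 3 and -0.67 with probe sets of a gene averaged (adjusted exact p = 0.038). A p over the threshold does not show that these partners changed alike.

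**Figure D3:**
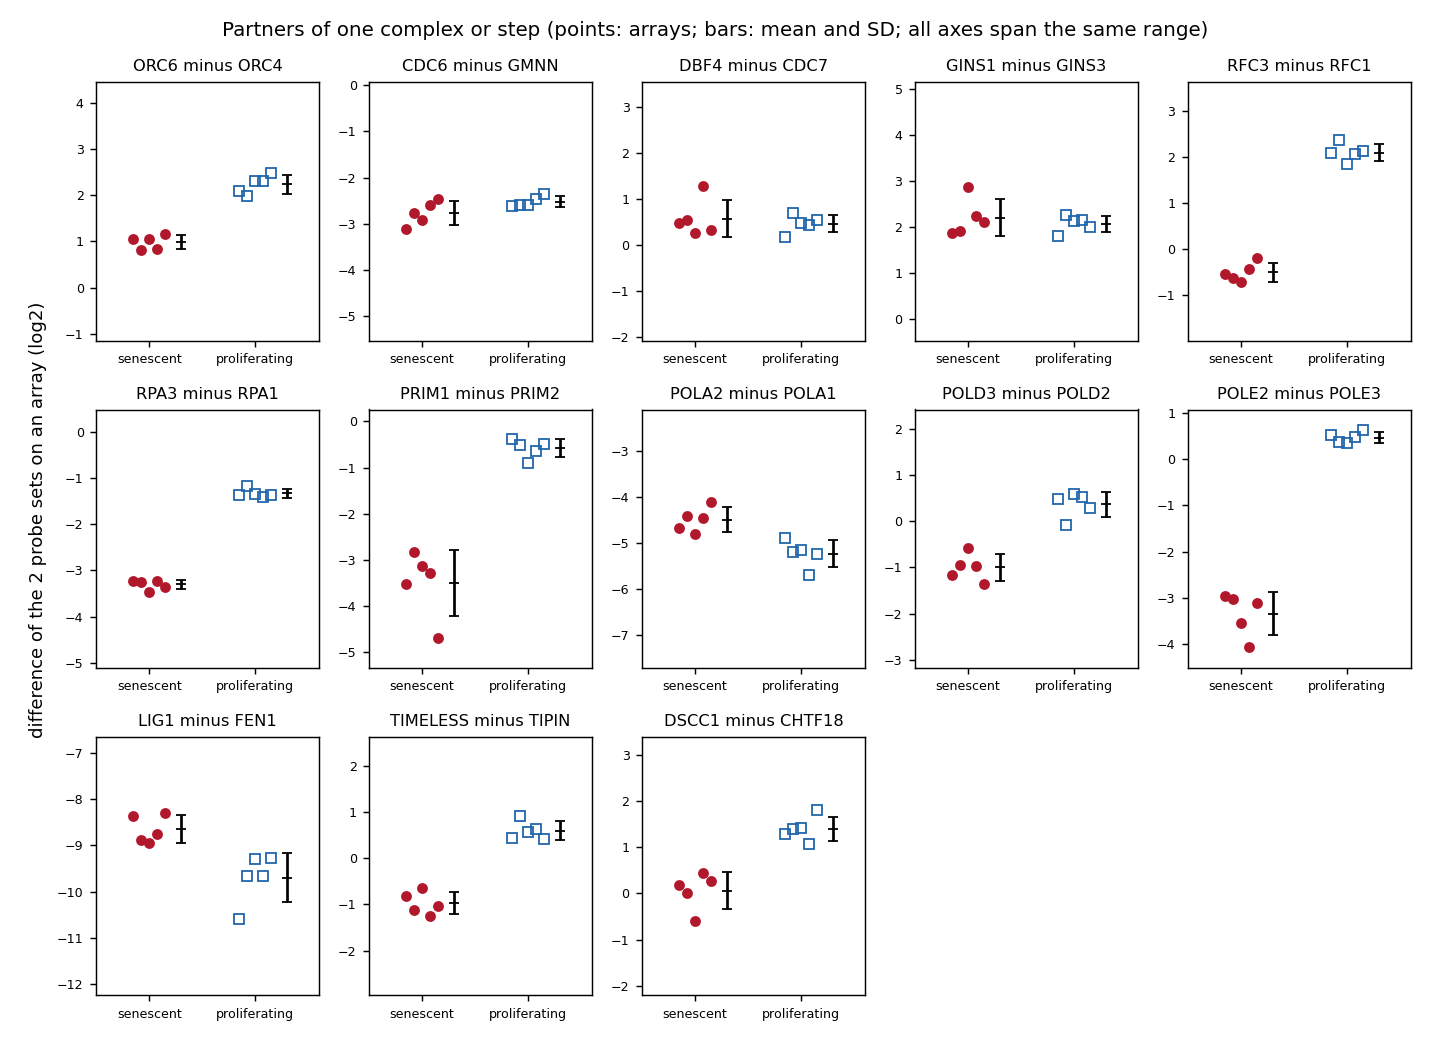
Difference between the log2 values of both partners' probe sets on each array (vertical axis) for 13 pairs, with senescent arrays as filled circles on the left, proliferating arrays as open squares on the right, and bars for mean and SD (n = 5 each). The groups are farthest apart for POLE2 minus POLE3, at -3.35 in senescent and 0.47 in proliferating cells, and overlap for CDC6 minus GMNN, DBF4 minus CDC7 and GINS1 minus GINS3.

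Other nuclear replication genes also fell. Of a list of 34, 30 were tested and 30 fell, against 29.8% of all tested genes. In 17 of them, or 56.7%, the decline was at least 4-fold, against 4.25% of all tested genes, and the median difference was -2.18 (log2). The count called lower was 27 with the ACTB control as a covariate, 22 without shared probe sets, where fewer genes could be read, and 29 or 30 under the other alternatives. The largest declines were in CHAF1B, a subunit of the histone chaperone CAF-1 (-4.79, SE 0.30), ATAD5, which unloads PCNA (-4.55, SE 0.29), MCM10, a factor that activates the helicase (-4.19, SE 0.10), and PCLAF, a PCNA-binding protein (-4.03, SE 0.12). The smallest were in CHTF8, of the alternative loader (-0.21, SE 0.06), the topoisomerase TOP1 (-0.32, SE 0.07), POLE4, a histone-fold partner of POLE3 (-0.35, SE 0.09), and CIZ1 (-0.43, SE 0.07), all past the limma threshold.

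Genes for replication of mitochondrial DNA had smaller differences by their median. Of 13 tested genes 10 fell, or 76.9%, against 29.8% of all tested genes, and 0 rose. A decline of 4-fold or more was seen in 0 of them, against 4.25% of all tested genes. Their median difference was -0.64, with a range from -1.53 to 0.59 (log2). PRIMPOL, a primase that also acts in the nucleus, fell by 1.53 (SE 0.11), TFAM, the mitochondrial DNA packaging and transcription factor, by 1.41 (SE 0.13), the helicase TWNK by 0.90 (SE 0.20) and the ligase LIG3 by 0.89 (SE 0.06). POLG, the mitochondrial polymerase, fell by 0.20 (SE 0.07, limma adjusted p = 0.023), and TFB2M by 0.46 (SE 0.09). POLG2, TEFM and POLRMT did not pass the threshold, with differences of -0.21 (adjusted p = 0.18), 0.23 (adjusted p = 0.15) and 0.59 (adjusted p = 0.11) in limma. The gap between these genes and the nuclear ones was not tested.

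**Figure D4:**
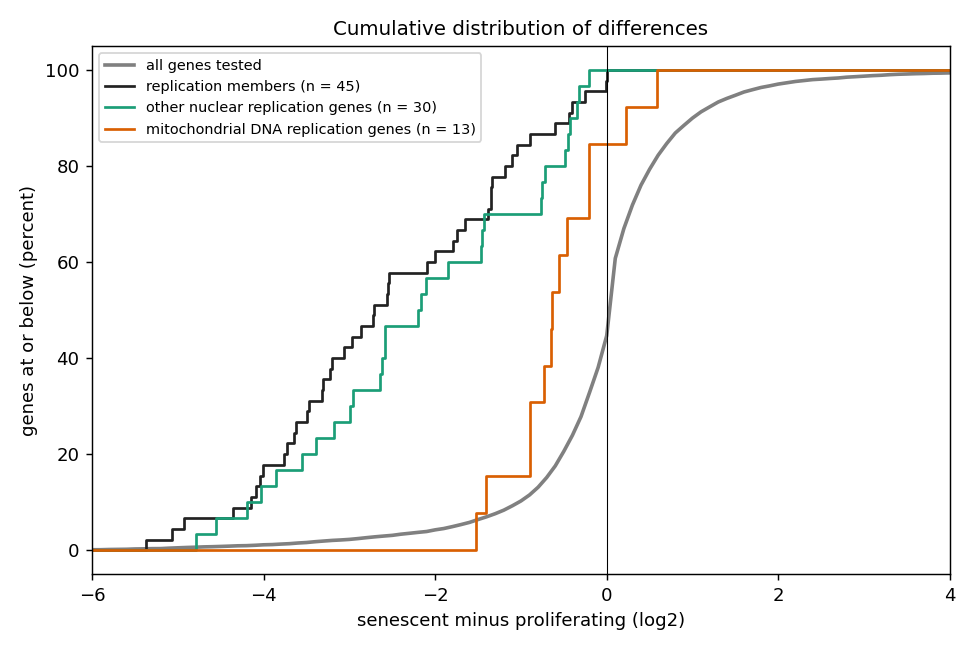
Cumulative share of genes (vertical axis, percent) at or below a given difference of senescent minus proliferating means (horizontal axis, log2) for all 12909 tested genes, the 45 tested replication genes, 30 other nuclear replication genes and 13 mitochondrial DNA replication genes. The medians are -2.71 for the replication genes, -2.18 for the other nuclear genes and -0.64 for the mitochondrial genes, against 0.04 for all genes.

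Within a group, single arrays were the lowest or highest in many members, clearly more often than over all tested genes only among proliferating arrays. Among senescent arrays, array 5 was the lowest in 19 of 45 genes, with a mean deviation of -0.12 from the group mean (log2), and array 3 was the highest in 14, with 0.08. Over all tested genes, senescent array 5 was the lowest in 34.4% (mean deviation -0.048) and senescent array 3 the highest in 25.9% (0.025). The member counts of the senescent arrays are not far above these shares and are not read as a trait of the members. Among proliferating arrays, array 5 was the highest of the 5 in 29 of 45 genes, with a mean deviation of 0.17, and array 2 was the lowest in 25, with -0.11. Over all tested genes, proliferating array 5 was the highest in 26.6% (mean deviation 0.013) and proliferating array 2 the lowest in 30.2% (-0.027). These deviations are small beside the median difference between groups of -2.71. The median SD of a member across the 5 arrays was 0.19 in senescent and 0.146 in proliferating cells (log2).

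**Figure D5:**
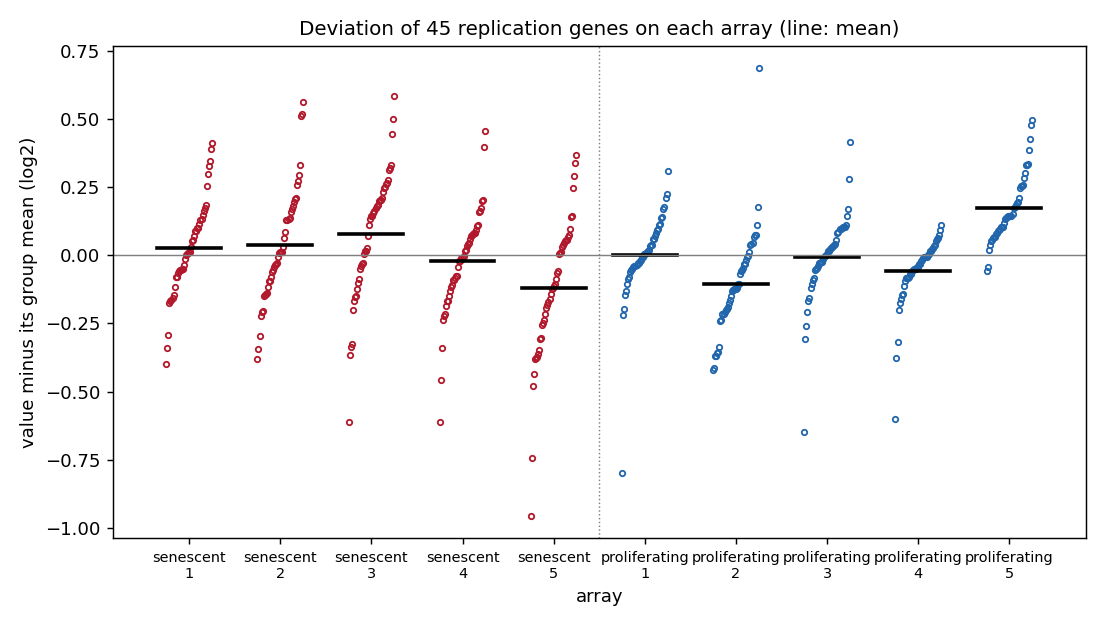
Deviation of each of the 45 tested replication genes from its group mean (vertical axis, log2) on each array, senescent arrays on the left and proliferating arrays on the right, with a line at each array's mean. Senescent array 5 has the lowest mean of its group (-0.12), and proliferating array 5 the highest of its group (0.17).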

How the data were processed

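Total RNA of senescent and proliferating IMR90 fibroblasts (5 arrays each) was hybridised to Affymetrix arrays, and the authors deposited log2 values, 1 for each of 54675 probe sets on an array. Partek and the array summarisation method GCRMA are named in the submitters' processing notes, with versions and settings not given in those sources. That the base is 2 was inferred from how far the values reach. The precision of a value is limited by the number of arrays, and scan dates and detection calls were not used here.

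Symbols came from the platform annotation, updated by gene identifier through RefSeq. Of all probe sets 62 were controls, 41091 had 1 symbol, 1801 several and 11721 none, and 41037 names came through the identifier while 54 kept the older one. Tested probe sets were those above the 40th percentile of an array (2.66 to 2.74) on at least 5 of 10 arrays. Differences of senescent minus proliferating means were tested two-sided with limma 3.58.1 (lmFit and eBayes) in R 4.3.3, adjusted by Benjamini-Hochberg over 32732 probe sets at 0.05, and pairs with an exact permutation test. Figures used matplotlib 3.10.9. On simulated data limma called 42% of changes of 0.5, 84% of 1 and 100% of 2 and 4 (log2, 50 probe sets each), with 5 false calls of 168. The simulation changed only these few probe sets, while in the data 8562 of 32732 were called lower and 8798 higher. Its rates therefore need not hold for the real fit.

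Members, roles, pairs and comparison lists were chosen with earlier results of these data known. All members are named. Values on every array are given for the genes with the largest and smallest difference in each role, for both genes of each of the 14 listed pairs, of which ORC1 with ORC2 could not be tested, and, chosen after values were seen, for PCNA and TOP2A. Of the comparison lists the 4 largest and 4 smallest differences are named, and POLG2, TEFM and POLRMT, which failed the threshold, where they fall outside that. Correlations of deviations between arrays of equal number ran from -0.057 to 0.091, and the numbers were not taken to pair the samples.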

Additional observations from a re-analysis of the deposited data

Results flagged for a closer look

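Of 94 groups of 5 arrays looked at for the 47 members, 6 held an array far from the other 4, with a gap to its nearest neighbour of over 0.71 of the whole range. Chance gives this in about 5% of groups, and 6 of 94 is near that share. In senescent cells these were GINS1, where array 3 was highest with a gap of 0.865 of the range, and RFC1, where array 5 was lowest with a gap of 0.732. In proliferating cells they were PCNA with array 2 lowest (0.807), TOPBP1 with array 4 highest (0.73), and ORC1 (0.784) and POLD1 (0.814), both with array 5 highest. ORC1 and POLD1 had a low signal on all arrays. Proliferating array 5 was also the highest of its group in 29 of 45 tested members, against 26.6% of all tested genes. Proliferating array 2 was the lowest in 25, against 30.2%, as the plot of deviations by array shows. The cause was not tested.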

How the results depend on the processing

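Across the 20 alternatives the count of members called lower ran from 31 to 44, against 42, and was lowest without shared probe sets, where fewer genes could be read; 0 members were called higher by limma under any of them. Member probe sets called lower numbered 56 to 66, against 65, being fewest with the 60th percentile filter, where fewer were tested. Members at least 4-fold lower numbered 20 to 29, against 28, and their median ran from -2.80 to -2.55. The 10 pairs that passed did so under every alternative that gave them a value. Other nuclear replication genes called lower numbered 22 to 30, against 30, and their median was -1.91 with probe sets of a gene averaged and -1.95 with 4 against 4 arrays, against -2.18, and 1 mitochondrial gene was called higher under the replicate block, with 0 to 1 when single arrays were left out (1 without proliferating array 5 and without senescent array 3).

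The replicate block changed no call of a member gene, and of the member probe sets it added 235423_at of ORC2 (-0.395, adjusted p = 0.015). For pairs the block was fitted in limma, where CDC6 minus GMNN passed at -0.252 (adjusted p = 0.019). Limma with no block, chosen after seeing the data, gave 0.074 for that pair, against 0.103 from the exact permutation test, and made the same 10 calls. Without single arrays CDC6 minus GMNN ran from -0.329 to -0.165, passing without senescent array 5. GINS1 minus GINS3 turned to -0.667 with the mean of probe sets (adjusted p = 0.038) and ran from -0.033 to 0.215 without single arrays, being negative without senescent array 3. DBF4 minus CDC7 ran from -0.065 to 0.189, being negative without senescent array 4.

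RFC5 on its brightest probe set stayed near 0: it was 0.01 after quantile normalisation, 0.083 with the ACTB control as covariate, 0 with 4 against 4 arrays and -0.048 to 0.013 without single arrays, but fell by 1.61 once its probe sets were averaged (adjusted p = 9.1e-08). ORC3 was -0.028 with housekeeping centring, -0.244 with the ACTB covariate (adjusted p = 0.027), -0.039 with 4 against 4 arrays and -0.054 to 0.033 without single arrays. ORC5 passed with the ACTB covariate (-0.534), the mean of probe sets (-0.393), 4 against 4 arrays (-0.326) and without proliferating array 2 (-0.354). The cause of these changes was not tested. Signals under the 60th percentile limit what can be said of LIG1, ORC1 and POLD1. They also limit the size of the declines in the 7 members with a low signal in senescent cells and, in part, in GINS3, CDC7 and DNA2.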
